A study of Mus musculus with 8 samples.

Results

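Gene-body peaks of Brg1 were the peaks of the Brg1 list after dTAG-13 whose summit, the base with the most fragments, lay inside a protein-coding gene and more than 1 kb from the start and end of every protein-coding gene. Of the 5206 peaks in that list, 2048 on chromosomes 1 to 19 and X met this rule, out of 5757 peaks in the 4 lists of the series. They were 39.3% of their list (95% interval 38.0 to 40.7%). The interval is an exact Clopper-Pearson one, as are all intervals of shares given here, and covers counting error only. Of the remaining Brg1 peaks, 967 lay within 1 kb of a gene bound, called gene-end peaks here, and 2182 lay between genes. Another 9 were on chromosome Y or unplaced sequences.

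The study used chromatin immunoprecipitation with sequencing (ChIP-seq) in mouse pro-B cells, an early stage of the B lineage, which A-MuLV, a leukaemia virus, had transformed so that they grow in culture. In these cells an exogenous, modified EBF1 had replaced the endogenous protein. The modification is a degradation tag, and the small molecule dTAG-13 recruits a ubiquitin ligase to the tagged protein. For Brg1, chromatin came from the EBF1-dTAG_N line, kept for 6 h in 0.5 µM dTAG-13 or in DMSO. EBF1 was precipitated from another line, EBF1-dTAG_C, under the same 2 treatments. The treatment label of the DMSO cells gives 6 h and their titles give 0 h. There was 1 library per group, so nothing said here about a difference between conditions has a replicate check, and EBF1 itself was not mapped in the line that gave the Brg1 peaks. Fixation differed too, with EGS and then 15 min in 1% formaldehyde for Brg1 and 10 min in 1% formaldehyde for EBF1.

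Brg1, encoded by Smarca4, is the ATPase that lets the BAF complex slide and evict nucleosomes. BAF binds promoters and, more widely, enhancers, many of which lie inside genes. In B-lineage cells Brg1 is needed for B-cell development, and EBF1 is a transcription factor that opens closed chromatin at B-lineage genes.

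A gene can have annotated starts inside its outermost bounds, and some gene-body peaks lay on them. RefSeq windows of GRCm38.p6 at such starts were used for this. In the 103 windows that a gene-body peak overlapped, of 300 bases each, the median number of CpG dinucleotides was 16 (95% interval 14 to 23). It was 6 in the 6568 internal windows without one and 7 in all 32620 windows of the table. Of the 103 windows, 11 lay wholly inside a peak. The 250 bases upstream of the start are shown for 4 of them, because these peaks cover a whole annotated start of the gene they lie in. The set was chosen for the highest fold (Atad1), for a further CpG-rich start (Myo1c) and for membership of the gene lists below (Cdk6 and Dock10). Capitals mark CpG dinucleotides.
Atad1, chr19:32712299-32712548, minus strand: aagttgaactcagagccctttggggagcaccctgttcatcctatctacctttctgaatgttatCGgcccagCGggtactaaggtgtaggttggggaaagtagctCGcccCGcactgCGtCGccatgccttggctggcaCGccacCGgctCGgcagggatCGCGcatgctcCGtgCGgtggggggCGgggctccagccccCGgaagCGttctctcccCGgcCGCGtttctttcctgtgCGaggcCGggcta
Myo1c, chr11:75655765-75656014, plus strand: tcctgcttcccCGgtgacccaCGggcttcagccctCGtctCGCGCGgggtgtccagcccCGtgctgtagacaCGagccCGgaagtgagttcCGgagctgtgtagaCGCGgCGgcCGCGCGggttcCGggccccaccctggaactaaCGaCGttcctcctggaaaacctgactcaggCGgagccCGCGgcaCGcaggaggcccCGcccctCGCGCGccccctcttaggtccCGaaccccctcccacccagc
Cdk6, chr5:3343643-3343892, plus strand: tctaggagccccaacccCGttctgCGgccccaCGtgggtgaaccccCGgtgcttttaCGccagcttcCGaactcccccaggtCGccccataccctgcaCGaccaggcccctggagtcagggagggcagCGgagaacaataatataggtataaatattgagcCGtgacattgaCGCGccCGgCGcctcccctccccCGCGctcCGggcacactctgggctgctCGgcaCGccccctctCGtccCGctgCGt
Dock10, chr1:80665353-80665602, minus strand: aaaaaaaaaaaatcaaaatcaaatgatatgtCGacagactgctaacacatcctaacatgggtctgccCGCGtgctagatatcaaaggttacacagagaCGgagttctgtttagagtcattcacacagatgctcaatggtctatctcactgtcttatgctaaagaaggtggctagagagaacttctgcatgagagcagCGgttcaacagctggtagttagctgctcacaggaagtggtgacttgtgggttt

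The upstream stretches of Atad1, Myo1c and Cdk6 held 21, 28 and 22 CpG dinucleotides, and that of Dock10 held 5. Atad1 encodes an ATPase that extracts membrane proteins, Myo1c a single-headed myosin, Cdk6 the G1 cyclin-dependent kinase and Dock10 an exchange factor for small GTPases. The Atad1 peak, chr19:32712235-32713077, had a fold enrichment of 7.76 and 29 fragments at its summit. The Myo1c peak reached a fold of 4.51 with 19 fragments, the Cdk6 peak 3.99 with 13 and the Dock10 peak 3.66 with 18. Fold enrichment is the authors' value for each peak, the pileup at the summit over the local background. Fragments are the whole number of sequenced fragments at the summit that the deposited fold and p imply.

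Several short motifs were looked for in the whole windows, on both strands. The GC box GGGCGG, which contains a CpG, was in 47.6% of the windows with a peak (37.6 to 57.6%), 28.3% of the other internal windows and 35.9% of all windows. The ETS motif CCGGAAG, which also contains a CpG, was in 9.71%, 5.18% and 8.92%. The CCAAT box, CCAAT, was in 23.3%, 33.9% and 37.6%, and the Ikaros motif TGGGAA in 19.4%, 27.3% and 25.4%. The E-box CACCTG was in 16.5%, 22.1% and 20.3%, and the Runx motif TGTGGT in 21.4%, 18.2% and 16.6%. In the windows with a peak the intervals were 4.75 to 17.1% (ETS), 12.3 to 28.4% (Ikaros), 9.92 to 25.1% (E-box) and 13.9 to 30.5% (Runx). Each of these includes both comparison shares. The CCAAT interval, 15.5 to 32.7%, includes neither. The EBF1 motif, TCCC and GGGA 2 bases apart, was in 2 of the 103 windows (1.94%, 0.236 to 6.84%). It was in 1.26% of the other internal windows and 0.907% of all windows. Atad1 and Myo1c each had 1 ETS match in the stretch shown. These matches describe letters in the windows and do not show binding.

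Gene-body peaks stood at internal starts far more often per base than elsewhere in genes. Of the 6671 internal starts on the 19 chromosomes the table covers, 223 had a gene-body peak summit within 1 kb, which is 3.34% of them. These chromosomes include X but not chromosome 18, which held 66 gene-body peaks. Seen from the peaks, 200 of 1982 (10.1%, 8.80 to 11.5%) had their summit that close to an internal start, and 79 within 250 bp. The stretches within 1 kb of these starts made up 1.16% of the gene-body length and held 18.02 peaks per Mb, against 1.89 per Mb in the rest. For 162 of the 200 peaks the nearest start belonged to the gene that held the peak, and for 38 to a long non-coding RNA. Peaks near internal starts had a median fold of 4.20 (4.08 to 4.34) and a median width of 300.5 bp (282 to 332). The others had a median fold of 4.45 (4.40 to 4.54) and a median width of 330 bp (320 to 340).

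Gene bodies by this rule spanned 987 Mb, or 37.9% of the length between the outermost genes of each chromosome, close to the 39.3% of peaks they held. Their density was 2.08 peaks per Mb. Stretches within 1 kb of gene bounds held 12.3 per Mb, and the space between genes 1.42. By chromosome, the density of gene-body peaks was highest on chromosome 11, with 182 peaks and 3.45 per Mb, and lowest on X, with 13 peaks and 0.297 per Mb. The next lowest, chromosome 6, had 1.48 per Mb.

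Within genes the peaks were denser towards the 5′ side. Strand was known for genes in 1685 of the 2075 pairs of a gene and a peak inside it, none of them on chromosome 18. Between 1 and 2 kb from the 5′ bound there were 123 pairs and 8.49 per Mb. The density fell to 4.94 per Mb at 2 to 5 kb, 3.13 at 5 to 10 kb, 2.296 at 20 to 50 kb and 0.793 beyond 200 kb. Counted from the 3′ bound it was 1.87 per Mb at 1 to 2 kb, with 27 pairs, and highest at 20 to 50 kb with 2.89. The 5′ density at 1 to 2 kb was thus 4.53 times the 3′ one (95% interval 2.97 to 7.15, counting error only). Without the peaks near internal starts it was 3.37 times. When the −log10 q had to reach 10, the counts were 3 and 5 and the ratio was 0.597.

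**Figure D1:**
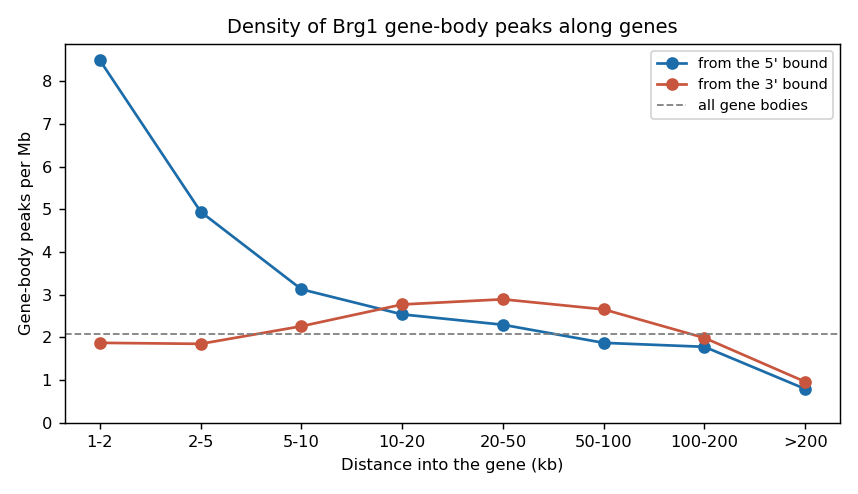
Density of gene-body peaks of Brg1 (pairs of gene and peak per Mb of gene body) in bins of distance in kb from the 5′ bound (blue) and the 3′ bound (red) of the gene. The dashed line is the density over all gene bodies, 2.07 per Mb. The 5′ line starts at 8.49 and falls to 0.793, and the 3′ line stays between 0.961 and 2.89.

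A peak at the 5′ bound itself was commoner in genes with gene-body peaks. Among genes of known strand, a gene-end peak lay within 1 kb of the 5′ bound in 570 of 14216 genes without a gene-body peak (4.01%, 3.69 to 4.35%). With 1 gene-body peak this was so in 85 of 659 genes (12.9%, 10.4 to 15.7%), and with 2 to 4 in 45 of 298 (15.1%, 11.2 to 19.7%). With at least 5 it was so in 11 of 40 genes (27.5%, 14.6 to 43.9%). At the 3′ bound the shares were 0.380% without a gene-body peak and 2.31% with at least 1. Gene length was not matched. Over all genes, of known strand or not, the median was 19.9 kb without a gene-body peak, 50.4 kb with 1 and 236 kb with at least 5. Gene-body peaks were themselves densest 1 to 2 kb from the 5′ bound, so the 2 kinds of peak are not independent of the 1 kb limit.

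Some genes held several gene-body peaks. The 2075 pairs of a gene and a peak inside it could have reached at most 2075 genes. Of the 19142 genes with any base more than 1 kb from all bounds, 1232 held at least 1 peak, which is 6.44%. Exactly 1 was held by 823 genes, at least 2 by 409, at least 3 by 191 and at least 5 by 52. The 409 genes held 1234 of the 2048 peaks, or 60.3%. A peak in overlapping genes was counted in each, which concerned 24 peaks. Neighbouring summits in 1 gene lay a median of 5.73 kb apart (quartiles 1.23 and 22.3 kb), and 524 of the 843 gaps (62.2%) were at most 10 kb. At most 1 kb were 184 gaps, and with summits within 1 kb counted once, 348 genes instead of 409 held at least 2. Runs of at least 3 summits with steps of at most 10 kb occurred in 104 genes, and runs of at least 5 in 11 genes.

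Longer genes more often held a peak but held fewer per base. Of genes up to 10 kb long, 1.22% held a peak, and of genes over 300 kb, 18.3%. The density went the other way, from 3.83 pairs per Mb in genes up to 10 kb to 2.18 in genes of 100 to 300 kb and 0.870 in those over 300 kb. The 10 longest genes without any gene-body peak were Dmd, Ptprd, Cntnap2, Lsamp, Lrp1b, Macrod2, Dlg2, Csmd1, Nrxn3 and Fhit. They ran from 1612 kb (Fhit) to 2390 kb (Dmd, the gene of dystrophin), and several of them, such as Cntnap2, Dlg2 and Nrxn3, encode synaptic proteins.

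The genes with the most peaks were Rad51b and Foxp1, with 13 each. Rad51b (chr12:79297282-79848260) encodes a protein of homologous recombination. Its peaks spanned 466 kb and their folds ran from 3.15 to 7.13. Foxp1 (chr6:98925342-99522746) encodes a forkhead factor required in early B-cell development, with peaks over 468 kb and folds from 2.73 to 6.89. It also had a gene-end peak at its 5′ bound. Fli1 (chr9:32422204-32543432), an ETS-family factor, was far more compact. It held 12 peaks within 40.7 kb, of which 8 formed 1 run, with folds from 2.62 to 5.31.

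Tec (chr5:72755718-72868654), the kinase that names its family, held 10 peaks with folds from 3.09 to 6.59. Inpp5d (chr1:87620312-87720510), the inositol phosphatase SHIP1 that restrains signalling at the plasma membrane, held 9 within 32.8 kb, 6 of them in a run. Rgl1, an exchange factor for Ral GTPases, held 11 over 220 kb, of which 1 was also in the Brg1 DMSO list. Zcchc7 (chr4:44756558-44932215), which encodes an RNA-processing protein, held 9, with a run of 6 and a highest fold of 7.07. Dthd1, a death-domain gene, also held 9, with a run of 7 and 1 peak in the DMSO list. Immp2l, which encodes a mitochondrial peptidase subunit and is 932 kb long, held 9 as well, but at only 0.966 per 100 kb.

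Of the other genes among the leading 20, Ablim1 (an actin-binding LIM protein), Arhgap26 (a GTPase-activating protein) and Cradd (a death-domain adaptor) held 8 each. In Ablim1, 7 of the 8 formed a run. St6gal1 (a sialyltransferase), Vmp1 (an autophagy protein), Tg (thyroglobulin), Mtss1 (an actin regulator), Baz2b (a bromodomain protein), Srgap2 (a Rac-inactivating protein) and Ebf1 held 7 each, and Ssh2 (a cofilin phosphatase) held 6. The 7 peaks in Tg formed a single run within 23.6 kb, and 6 of the 7 were also counted in Sla, a Src-like adaptor of lymphocytes that overlaps Tg. The highest folds in this group were 8.81 in Ssh2 and 8.54 in St6gal1. Ebf1 (chr11:44618100-45008096) is the gene of the endogenous EBF1, which the exogenous tagged protein had replaced. Its highest fold, 4.14, was the lowest highest fold of the 20 genes, with at most 20 fragments. None of its 7 peaks was in the Brg1 DMSO list. Over all gene-body peaks only 45 of 2048 were, so this does not set Ebf1 apart.

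**Figure D2:**
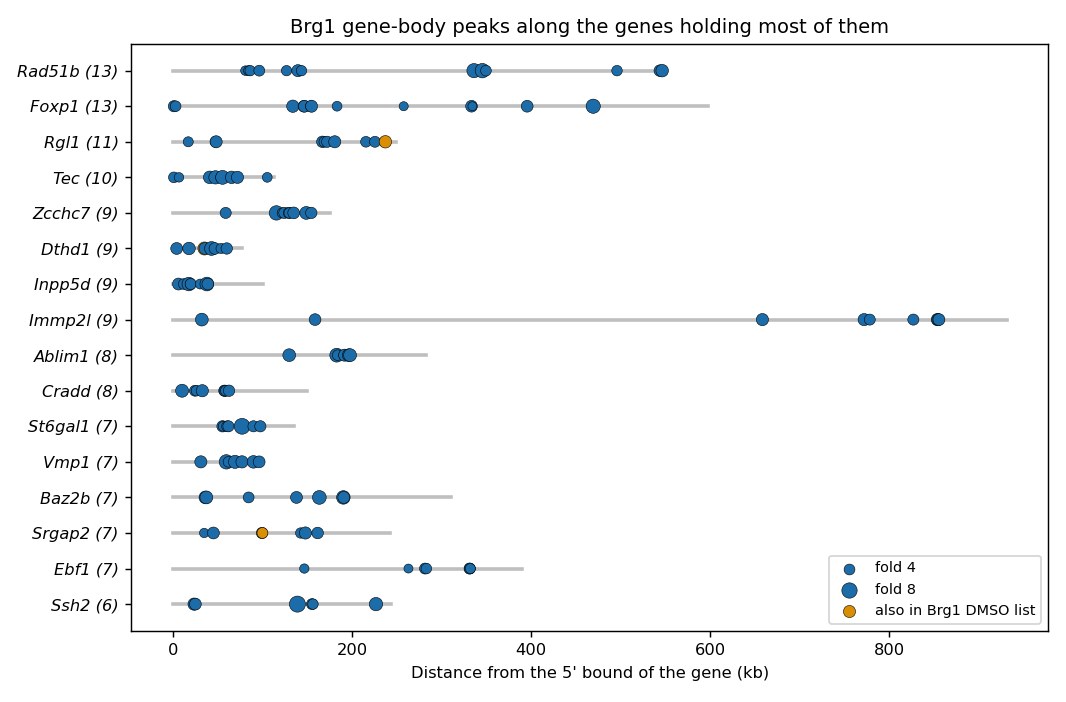
Gene-body peaks of Brg1 in the 16 of the 20 leading genes whose strand was known, by distance in kb from the 5′ bound; grey bars are the genes and the number of peaks stands in brackets. Each dot is a peak with an area in proportion to its fold, orange where it was also in the Brg1 DMSO list. The peaks of Inpp5d lie within 32.8 kb, while those of Rad51b span 466 kb in several groups.

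Counted per length among genes with at least 3 peaks, short genes led, since that minimum by itself gives a short gene a high density. Il17ra, the receptor chain for interleukin 17, held 5 peaks in 20.6 kb, or 24.3 per 100 kb. One of them, with a fold of 2.61, had a local background more than 5 times the lowest of the list. Mgat1, the enzyme that starts complex N-glycans, held 4 in 18.8 kb, and Grk2, a kinase of G protein-coupled receptors, 4 in 20.2 kb. Trp53i11, Mef2b (a MADS-box factor of B cells), Evi2, Ms4a6c, Milr1, Ifi47 (an interferon-induced GTPase) and Gna15 (a G protein alpha subunit of blood cells) held 3 each, at 20.8 to 13.6 per 100 kb. The 3 summits in Mef2b lay within 1.097 kb. They were also counted in the overlapping Gm45929, at 10.7 per 100 kb. The 3 peaks of Evi2 were also counted in the overlapping, longer Nf1, at 1.24 per 100 kb. Over all gene bodies the density was 0.208 peaks per 100 kb.

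Fold enrichment was moderate for most gene-body peaks. The median was 4.44 (order-statistic 95% interval 4.37 to 4.48), the quartiles were 3.91 and 5.14, and the range was 2.28 to 16.3. Gene-end peaks had a median of 4.27 (4.24 to 4.37) and peaks between genes 4.54 (4.45 to 4.57). A gene-body summit rested on a median of 18 fragments, with a range of 10 to 86. Of the peaks nearest to the 1 kb limit inside it, that in Mbnl2 at 1004 bp had a fold of 5.34 and that in Tbpl1 at 1012 bp a fold of 3.91. The 3 nearest outside it, in Lyn, Maff and Tbc1d10c at 993 to 994 bp, had folds of 5.36, 3.99 and 4.22.

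The highest gene-body peak was in Nr2c2, which encodes an orphan nuclear receptor, at chr6:92126936-92127633. Its fold was 16.3, with 63 fragments over a background of 2.92. The second was in Arhgef2, a guanine nucleotide exchange factor, at chr3:88647802-88648557, with a fold of 12.2 and 42 fragments, 1.22 kb from the nearest gene bound. The third was in Pax5, the B-lineage commitment factor, at chr4:44670945-44671650, with a fold of 12.2 and 52 fragments, 39.5 kb from the nearest bound. Relt, a receptor of the tumour necrosis factor family, followed with a fold of 11.1 and 35 fragments. Tlr4, the receptor for lipopolysaccharide, had a peak with a fold of 11.0 and 56 fragments.

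The next 10 had folds from 10.5 to 8.90. They lay in Lpgat1 (a lipid acyltransferase), Bank1 (a B-cell scaffold protein), Cmss1, Sorcs2 (a sortilin-family receptor), Plekha2 (an adaptor that binds phosphoinositides), Kat7 (a histone acetyltransferase), Tcf4 (an E protein of the B lineage), Tfeb (a factor for lysosomal genes), Ell2 (an elongation factor with a role in antibody-secreting cells) and 5430427O19Rik. The Bank1 peak had 45 fragments and lay 78.6 kb from the nearest bound. Of these 15 highest peaks, those in Nr2c2, Pax5, Relt, Tlr4, Plekha2 and Tfeb were also in the Brg1 DMSO list.

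Most gene-body peaks were narrow. The median width was 328 bp (317 to 338), the quartiles were 250 and 473 bp, and the range was 205 to 2036 bp. Gene-end peaks were narrower, with a median of 288 bp (278 to 296), and peaks between genes had a median of 340 bp (328 to 349). Over 500 and up to 1000 bp were 19.9% of gene-body peaks (18.2 to 21.7%) and 11.4% of gene-end peaks (9.44 to 13.5%). Over 1000 bp were 44 gene-body peaks, 2.15% (1.57 to 2.87%), against 0.620% at gene ends and 3.2997% between genes. Wider gene-body peaks had higher folds: the median was 4.14 up to 250 bp, 4.40 from there to 500 bp, 5.05 to 1000 bp and 5.80 beyond. Spearman's rank correlation between width and fold was 0.304 over the 2048 peaks, which share 1 library.

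**Figure D3:**
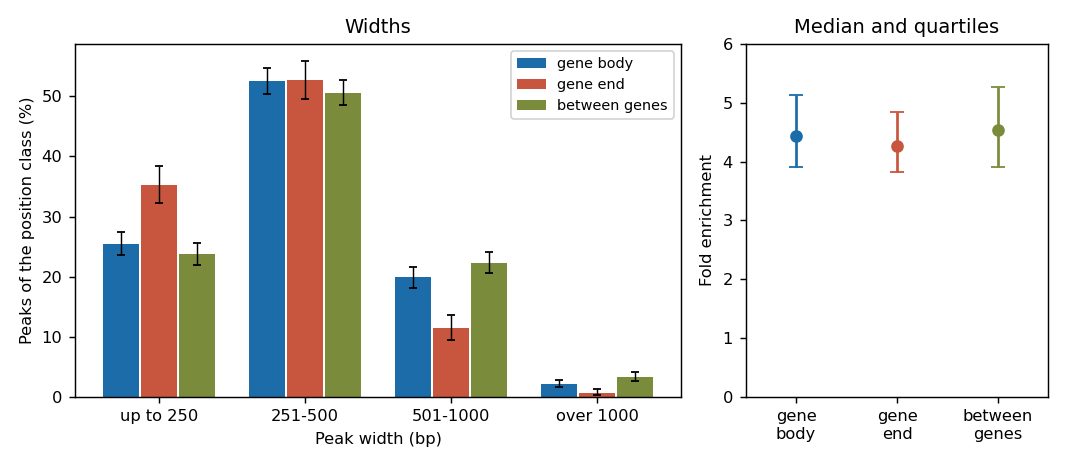
Left, share in percent of gene-body, gene-end and between-gene peaks of Brg1 in 4 classes of width in bp, with exact 95% intervals; right, median fold enrichment with quartiles. Widths up to 250 bp made up 25.4% of gene-body and 35.3% of gene-end peaks, while the medians of fold lay between 4.27 and 4.54.

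The 10 widest gene-body peaks lay in Ell2, Cep170, Klf13, Gm5373, Rad51b, Marchf1, St3gal6, Plch1, Kat7 and Snx29. The peak in Ell2 was 2036 bp wide with a fold of 9.05, and that in Cep170 (a centrosomal protein) 2032 bp wide with a fold of 6.94. In Klf13, a Krüppel-like factor of lymphocytes, the width was 1941 bp and the fold 6.64. The peak in Gm5373 was 1563 bp wide with 86 fragments, the most of any gene-body peak, but its background was 20.9 and its fold 3.97. It was 1 of 4 gene-body peaks with a background over 5 times the lowest, beside another in Gm5373, that in Il17ra and that in the overlapping genes Sp110 and Sp140. The peaks in Ell2, Kat7 and Tcf4 were among the highest by fold as well as over 1000 bp wide.

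Few gene-body peaks were in the Brg1 list from DMSO. At least 1 bp was shared by 45 of 2048 (2.197%, 1.61 to 2.93%), and over the whole list the share was 2.42%. For gene-end peaks it was 0.620% (0.228 to 1.35%) and between genes 3.44% (2.71 to 4.29%). The DMSO list has 234 peaks, and its lowest local background was 0.607 fragments against 2.15 in the dTAG-13 list, a ratio of 3.54. The median summit there had 13 fragments. Depth and treatment thus differ together between the 2 Brg1 libraries and cannot be told apart. From the DMSO side, 83 peaks met the gene-body rule and 45 of them met a gene-body peak of the dTAG-13 list (54.2%, 42.9 to 65.2%). Over the whole DMSO list, 124 of 234 peaks met a dTAG-13 peak. Of the 78 genes that held the 83 peaks, 64 (82.1%) also held a gene-body peak after dTAG-13. Over all genes that share was 6.44%, and the 64 genes are 5.19% of the 1232. The 45 shared peaks put their genes among the 64 by themselves, so the gene count is not separate from the peak count. Gene length was not matched either. Over all genes the share was 1.22% up to 10 kb and 18.3% over 300 kb.

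The shared peaks were the wider and higher ones of the dTAG-13 list. Their median fold was 5.52 (5.07 to 6.54) and their median width 572 bp (454 to 706), with 24 fragments. The others had 4.41, 325 bp and 18 fragments. With the peaks ranked by fold into 10 classes, 0 of 205 were shared in the lowest class and 17 of 204 in the highest (8.33%, 4.93 to 13.01%). None of the 200 peaks near internal starts was shared (upper bound 1.83%), against 43 of 1782 elsewhere (2.41%, 1.75 to 3.24%).

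The 12 highest shared peaks lay in Nr2c2, Pax5, Relt, Tlr4, Plekha2, Tfeb, Zfp608, Osbpl9, Cdkal1, Dip2c, Cdh17 and Dgkb. Fold values of the 2 lists are not on a common scale and stand side by side only. The Nr2c2 site had 14 fragments and a fold of 6.61 in DMSO and 63 fragments after dTAG-13. The Pax5 site had 16 fragments in DMSO and 52 after dTAG-13, and the Tlr4 site 17 and 56. At the Osbpl9 site, in a gene for a lipid-transfer protein, the counts were 15 and 30. The ratios of these counts lie on both sides of 3.54. The DMSO peak at the Pax5 site was 195 bp wide and the dTAG-13 peak 706 bp.

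**Figure D4:**
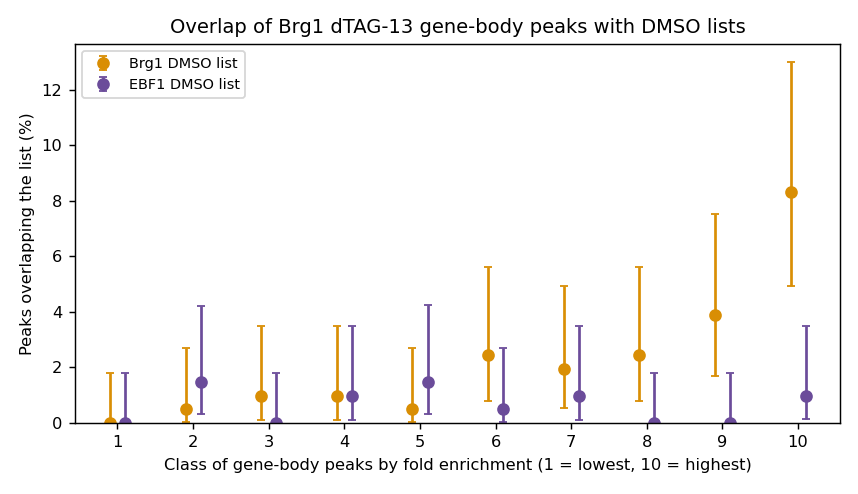
Share in percent of gene-body peaks of Brg1 after dTAG-13 that overlapped the Brg1 DMSO list (orange) and the EBF1 DMSO list (purple), in 10 classes by fold enrichment, with exact 95% intervals. The Brg1 share is 0 in the lowest class and 8.33% in the highest; the EBF1 share is at most 1.47% in any class.

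Overlap with EBF1 was rarer. Of the gene-body peaks, 13 (0.635%, 0.338 to 1.08%) shared at least 1 bp with 1 of the 312 EBF1 peaks from DMSO, against 1.09% of the whole list and 1.70% of peaks between genes (1.20 to 2.33%). The EBF1 lists came from the other line. The 12 highest lay in LOC108168726, Inpp5d, Pacs2, Ttc25, Msi2, Faap20, Tbc1d16, Endod1, Bcl2l1, Wdfy3, Kcnc1 and Dnah1. At Inpp5d the Brg1 peak, chr1:87658058-87658341, had a fold of 6.44 and 27 fragments, and the EBF1 peak covered 87658173 to 87658339. At Bcl2l1, which encodes the survival protein BCL-XL, the Brg1 fold was 4.15. In Pacs2, Msi2, Wdfy3 and Dnah1 the same peak also met the Brg1 DMSO list, so that 4 gene-body peaks were in both DMSO lists, 41 in that of Brg1 alone, 9 in that of EBF1 alone and 1994 in neither.

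Seen from EBF1, 126 of its DMSO peaks met the gene-body rule and 13 of them met a gene-body peak of Brg1 (10.3%, 5.61 to 17.0%). Over the whole EBF1 DMSO list, 56 of 312 peaks met a peak of the Brg1 dTAG-13 list. The 126 peaks lay in 120 genes. Of these genes, 52 (43.3%) held a gene-body peak of Brg1 somewhere, against 6.44% of all genes. Gene length was not matched in this. Over all genes the share was 1.22% up to 10 kb and 18.3% over 300 kb. The 13 overlapping peaks also put their genes among the 52 by themselves. In the 52 genes the EBF1 summit was a median of 4.41 kb from the nearest Brg1 summit, and 17 of 57 were within 1 kb. At Pax5 this distance was 33.2 kb. With the 5 EBF1 peaks after dTAG-13 no gene-body peak overlapped, 0 of 2048 (upper bound 0.18%), and over the whole list the share was 0%. None of those 5 lay in a gene body.

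Genes of the B lineage held gene-body peaks more often than the 6.44% of all genes. The lists of genes used here were chosen with earlier results of these data known, so the shares describe them and test nothing. Of 36 B-lineage transcription factors that could hold a peak, 23 held at least 1 (63.9%, 46.2 to 79.2%), at 17.7 pairs per Mb against 2.07 over all genes. Their median length was 104 kb, against 21.4 kb over all genes. After Foxp1, Fli1 and Ebf1 came Tcf12 (an E protein) and Ikzf1 (Ikaros) with 6 each and Tcf4 with 5. The highest fold in Tcf12 was 5.41, in Ikzf1 4.37 and in Tcf4 9.23.

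Of 31 pre-B receptor signalling genes, 18 held a peak (58.1%, 39.1 to 75.5%), at 11.7 pairs per Mb. Inpp5d led with 9, followed by Pik3ap1 (the adaptor BCAP) and Vav2 (an exchange factor) with 4 each, Bank1 and Pik3cd (a PI3-kinase catalytic subunit) with 3 and Prkcb (a protein kinase C) with 2. Of 25 early B-lineage and pre-B receptor genes, 8 held a peak (32.0%, 14.9 to 53.5%). These are short genes, with a median of 11.3 kb, and their density was the highest of all lists, 27.8 pairs per Mb, from 15 pairs. Cd38 (an ectoenzyme) held 4, Flt3 (a cytokine receptor of progenitors) 3, Blnk (the pre-B receptor adaptor) and Cd74 (the invariant chain) 2 each, and Ptprc (CD45) and Mzb1 (a chaperone) 1 each. The Flt3 group included 1 peak of the DMSO list.

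Of 33 proliferation and survival genes, 11 held a peak, at 13.4 pairs per Mb, among them Cdk6 with 5, Bcl2l1 with 4, E2f2 and Ccnd3 (cyclin D3) with 3 and Bmf (a BH3-only protein) with 2. Of 34 small GTPase and actin regulators, 14 held a peak, at 5.36 per Mb. Arhgap26 held 8, Dock10 5, Plekha2 and Arhgef3 4, Wipf1 3 and Arhgap25 2. Among 26 cytokine and JAK-STAT genes the count was 5, at 9.64 per Mb: Socs2 with 3, Stat5b and Smad3 with 2, and Smad7 and Il2ra with 1. Other chromatin regulators had 9 of 37, at 4.44 per Mb, with 4 peaks each in Rere, Hdac9 and Hdac7, 2 each in Kdm2b and Jarid2 and 1 in Chd1. Of 29 BAF subunit genes, 3 held a peak (10.3%, 2.19 to 27.4%), at 3.24 pairs per Mb. This interval includes the 6.44% of all genes. The 3 were Bicral with 4, and Arid1b and Smarca4, the gene of Brg1, with 1.

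Lists for other cell types held fewer pairs than the B-lineage lists, but the T-cell and myeloid densities were above that of all genes. T-cell genes had 4 of 24 (16.7%, against 6.44% over all genes), at 4.82 pairs per Mb against 2.07. Among them were Lck with 2 and Zap70 and Ctla4 with 1 each. Of 19 myeloid genes only Tlr4 held a peak (5.26%), with 2, which gave 5.98 per Mb. No erythroid or megakaryocyte gene of 18 (upper bound 18.5%) and no hepatocyte gene of 19 (upper bound 17.6%) held any. Over 27 neuronal genes, whose median length was 911 kb, the density was 0.195 per Mb. Of 8 markers of pro-B cells, Pax5 and Ebf1 held gene-body peaks, 2 and 7.

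**Figure D5:**
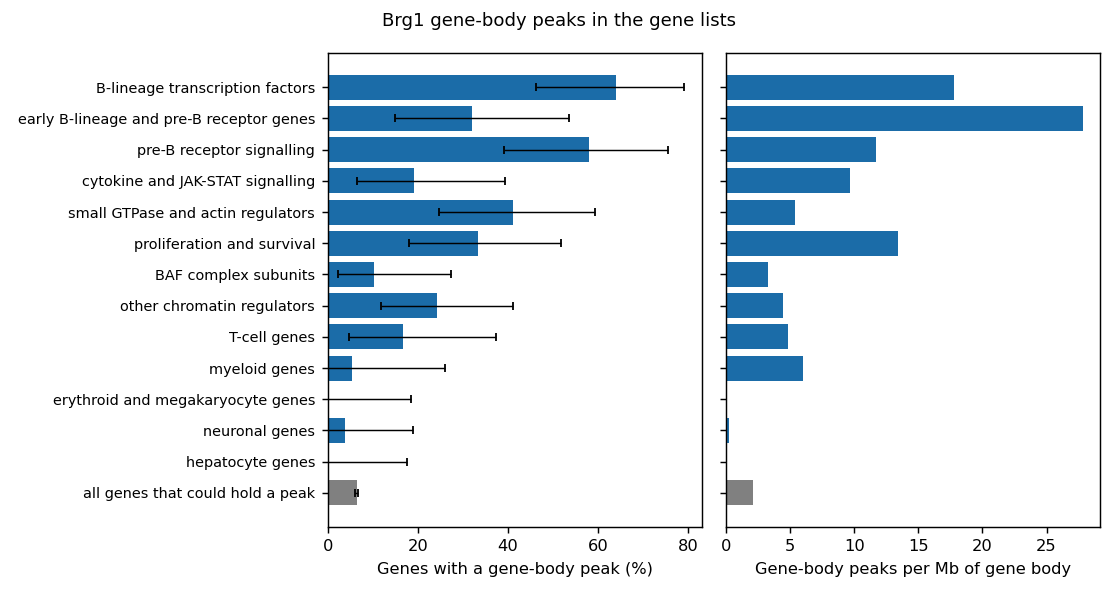
Left, share in percent of the genes of each list that held at least 1 gene-body peak of Brg1, with exact 95% intervals; right, pairs of gene and peak per Mb of gene body. The grey bar is the value over all genes, 6.44% and 2.07 per Mb. The B-lineage transcription factors reach 63.9% and the early B-lineage genes 27.8 per Mb, and the erythroid and hepatocyte lists are at 0.

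Some gene-body peaks lay on microRNA genes. Of 1005 hairpins in the RefSeq table, 3 overlapped a gene-body peak, namely Mir7655 in Mllt10, Mir7687 in Gse1 and Mir6541 in Wdfy2, at folds of 4.30, 4.59 and 5.29. Within 10 kb of a peak were 28. These hairpins were named after their values were seen.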

How the data were processed

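ChIP-seq of Brg1 and EBF1 was measured in 8 samples, 4 immunoprecipitations with 1 peak list each and 4 inputs, which were not analysed here. The submitters' processing notes name MACS2 2.2.7.1, Bowtie2 2.3.5.1, deepTools 3.3.2 and SAMtools 1.10, and the build GRCm38. For read filters, calling settings and controls, the choice is not given in the sources used here. Each list's own peak names show that the authors called peaks per library. In the deposited lists the fold enrichment is a linear ratio, p and q are −log10 values, and the score is a whole number made from q. All are the authors' values. Fold, as (pileup + 1)/(background + 1), and the Poisson p rest on the same pileup and local background, and solving the pair gave whole fragments at every Brg1 summit, within 0.000136 of the −log10 p. Library totals were not used, so depth is known only through these fragments.

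Positions are 1-based on GRCm38.p6, with RefSeq gene bounds, which give no exons. Strand and internal starts came from RefSeq promoter windows, which covered 15213 of 19142 genes and none on chromosome 18. Peaks overlapped if they shared at least 1 bp. No test between conditions was possible with 1 library each. Functions were tested on simulated data (Python 3.11.15, scipy 1.17.1, pandas 2.3.3). Alternatives were a −log10 q of at least 5 or 10, other distances to gene bounds, all annotated genes, merged summits and stricter overlaps.

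The peaks and gene lists were chosen with earlier results of these data known. Genes were named by fixed rules: the 20 with most peaks, the 10 densest with at least 3, the 15 highest and 10 widest peaks, the 12 highest shared with each DMSO list, up to 6 genes per list, the 3 peaks on each side of the 1 kb limit and the 10 longest genes without a peak. Analyses of internal starts, strand and microRNAs were added after seeing the data. A few genes that these rules name are not reported here.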

Additional observations from a re-analysis of the deposited data

How the results depend on the processing

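Each result was recomputed under the alternatives that concern it. Requiring a −log10 q of at least 5 left 880 gene-body peaks, 156 genes with at least 2 and 63 listed genes with a peak instead of 97. Median width and fold became 410.5 bp and 5.32, and the share of peaks near internal starts 7.52%. At 10 or more these were 164, 7, 23, 671.5 bp, 7.11 and 3.798%, while the overlap with Brg1 DMSO fell to 0.610% and with EBF1 DMSO to 0%, fewer peaks being left in both lists. There the density ratio of 5′ to 3′ was 0.597, from 8 pairs. Gene-body peaks made up 43.2% of the list with a limit of 500 bp, 35.4% with 2 kb and 44.1% with all annotated genes. A reciprocal overlap of 50% gave 0.732% for Brg1 DMSO and 0.244% for EBF1 DMSO. Counting summits up to 10 kb outside genes gave 161 listed genes, and counting only starts of the host gene gave 8.48% of peaks near internal starts. For these results the other 21 recomputed values stayed within 1.5 times the main count or inside its interval. Among them was the overlap with EBF1 after dTAG-13, 0 in every setting, which a stricter q or overlap could not have changed. No paired analysis was possible because there was 1 library per group. The median summit rested on 18 fragments, and no count was recomputed at another depth.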
